A study of Homo sapiens with 12 samples.

Results

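RNA levels of 10 genes that write, copy or erase DNA methylation, or that deposit the repressive Polycomb mark, were followed in HepG2, an established human liver tumour cell line. They were taken by name as the 3 DNA methyltransferase genes (DNMT1, DNMT3A and DNMT3B), UHRF1, the 3 TET genes (TET1, TET2 and TET3) and the 3 core genes of Polycomb repressive complex 2 (EZH2, SUZ12 and EED), 10 of 35810 genes for which transcript counts were summed. Polyadenylated RNA was sequenced in 4 groups of 3 libraries. WT cells received the vehicle DMSO (WT DMSO) or 5 µM sorafenib for 48 h (WT sorafenib), and cells whose ARID1B gene had been targeted with CRISPR/Cas9 received the same vehicle (KO DMSO) or the same drug (KO sorafenib). Sorafenib is a kinase inhibitor used against liver cancer, ARID1B belongs to the chromatin remodelling complex BAF, and the series asks whether losing ARID1B drives resistance to the drug through a changed transcriptome. The replicates are named biological by the submitters. The number of knockout clones behind them is not given, so a property of 1 clone and an effect of the knockout cannot be told apart.

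In mammals, DNMT3A and DNMT3B place new methyl groups on cytosines in CpG dinucleotides. UHRF1 recognises the hemimethylated CpG that DNA replication leaves behind and brings DNMT1 there to restore the mark on the new strand. TET enzymes oxidise methylcytosine, which starts its removal, and Polycomb repressive complex 2 methylates histone H3 to keep developmental genes silent. Both UHRF1 and EZH2 are known for high levels in proliferating cells and in liver tumours.

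The libraries held 19739582 to 29398257 estimated counts, and 12821 genes passed a filter on low counts. All 10 genes were among them. ARID1B RNA checked the labels. In WT it lay at 58.4 to 69.1 CPM (counts scaled to a common library size after TMM correction), and in the knockout at 25.9 to 35.6 CPM. The fall was 1.19 ± 0.11 on the log2 scale in DMSO (SE, n = 3 libraries a group, quasi-likelihood test of edgeR, Benjamini-Hochberg adjusted p = 7.44e-06) and 1.18 ± 0.11 in sorafenib (adjusted p = 8.89e-06), so ARID1B RNA remained in the knockout libraries. All 12 liver cell markers passed the filter. Of 12 markers of blood, endothelial and fibroblast cells, 7 stayed under 1 CPM, among them PTPRC and DCN with 0 counts in every library. The other 5 passed the filter, and the highest libraries reached 84.9 CPM for ACTA2 and 52.4 CPM for CD68.

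Several of these genes have a known link to the cell cycle through E2F factors, which activate replication genes, so the E2F words TTTCCCGC, TTTGGCGC and TTTCGCGC were searched on both strands in promoter windows of RefSeq (GRCh38.p14, 250 bases before to 50 after each start). A window with at least 1 of the 3 words was found for 4 of the 10 genes, UHRF1, DNMT1, EZH2 and SUZ12. Over all genes with a window the share was 3.30%, and it was 16 of 33 among DNA replication genes with a window. A gene counted if any of its windows held a word. Genes differed in their number of windows, and the shares were not adjusted for it. Of the 4 genes, UHRF1, DNMT1 and EZH2 fell with sorafenib in both genotypes and SUZ12 fell in the knockout. TET3 also fell in both genotypes and had no E2F word in a window. For each of the 4 genes 1 site is given 5′ to 3′ on the strand of its gene, with the word, or its reverse complement, in capitals.
UHRF1, chr19:4909476-4909505, plus strand: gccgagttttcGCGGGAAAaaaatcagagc
DNMT1, chr19:10194937-10194966, minus strand: catcggtttccGCGCGAAAagccggggcgc
EZH2, chr7:148884272-148884301, minus strand: gggctgccgcgTTTGGCGCtcggtccggtc
SUZ12, chr17:31936807-31936836, plus strand: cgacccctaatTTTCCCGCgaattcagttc

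The word in UHRF1 began 14 bases before the start of its MANE transcript (the transcript NCBI and Ensembl chose to represent the gene), in an intron of the longer annotated transcript UHRF1-201. UHRF1-201 begins at chr19:4903080, where no window was present. It held 50.1%, 84.1%, 60.8% and 28.7% of UHRF1 counts on average in WT DMSO, WT sorafenib, KO DMSO and KO sorafenib. The MANE form UHRF1-208 held 33.3%, 11.8%, 31.1% and 66.6%. Both shares varied widely within most groups, so the main UHRF1 start of these cells was not settled. In SUZ12 the word began 189 bases before the start. In DNMT1 the word began 2 bases before the start and crossed it, and in EZH2 it lay just after the start, in the first exon. A further RefSeq start of UHRF1, at chr19:4910144, had TTTCGCGC beginning 160 bases before it. Whole windows are shown for UHRF1 and EZH2, which fell, and for the internal start of DNMT3A, from which the main DNMT3A transcript of these cells begins and which rose. They are the 250 bases before each start, 5′ to 3′ on the gene's strand, and capitals mark E2F words and the word CCAAT, bound by the factor NF-Y, on either strand.
UHRF1, chr19:4909251-4909500, plus strand: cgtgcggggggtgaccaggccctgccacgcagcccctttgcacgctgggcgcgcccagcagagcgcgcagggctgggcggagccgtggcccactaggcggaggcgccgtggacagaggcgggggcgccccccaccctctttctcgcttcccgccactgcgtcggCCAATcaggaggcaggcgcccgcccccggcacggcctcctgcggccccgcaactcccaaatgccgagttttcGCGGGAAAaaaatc
EZH2, chr7:148884292-148884541, minus strand: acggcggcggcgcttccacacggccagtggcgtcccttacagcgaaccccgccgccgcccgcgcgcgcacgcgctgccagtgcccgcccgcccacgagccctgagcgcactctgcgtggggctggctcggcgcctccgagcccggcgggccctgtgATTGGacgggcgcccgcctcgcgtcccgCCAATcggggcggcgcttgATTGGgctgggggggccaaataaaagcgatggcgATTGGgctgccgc
DNMT3A internal start, chr2:25252316-25252565, minus strand: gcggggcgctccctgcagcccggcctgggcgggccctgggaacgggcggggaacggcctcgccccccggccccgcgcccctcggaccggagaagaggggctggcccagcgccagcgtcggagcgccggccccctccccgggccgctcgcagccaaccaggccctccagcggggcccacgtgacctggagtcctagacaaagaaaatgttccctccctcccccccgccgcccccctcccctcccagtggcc

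CCAAT occurred 4 times before the EZH2 start and 1 time before the UHRF1 start shown. It was in a window of 7 of the 10 genes and in a window of 39.7% of the 27305 genes with 1 or more RefSeq windows, and the cell cycle word TTTGAA was in a window of 3 of the 10 and of 18.2% of genes. These shares were also not adjusted for the number of windows of a gene. The DNMT3A window held none of these words and lies in an intron of the longer DNMT3A transcripts. No matches within a window of these genes overlapped each other. A match is a string of letters, and binding of a factor was not measured.

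Sorafenib moved the methylation genes in opposite directions. In WT cells 4 genes fell, UHRF1, DNMT1, TET3 and EZH2, and 3 rose, DNMT3A, DNMT3B and TET2. In knockout cells the same 7 genes moved the same way and SUZ12 fell as well. TET1 and EED passed the test in neither genotype. In bulk RNA, fewer cells in the dividing state and less RNA per cell cannot be told apart. The 7 of 10 genes called in WT stand against 35.4% of all genes tested (17.5% higher and 18.0% lower), and the 8 of 10 called in the knockout against 46.7% (23.0% higher and 23.7% lower), with a call at an adjusted p under 0.05. The median log2 change of the 10 genes was -0.23 in WT and -0.36 in the knockout, against -0.01 and 0.01 over all genes tested.

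**Figure D1:**
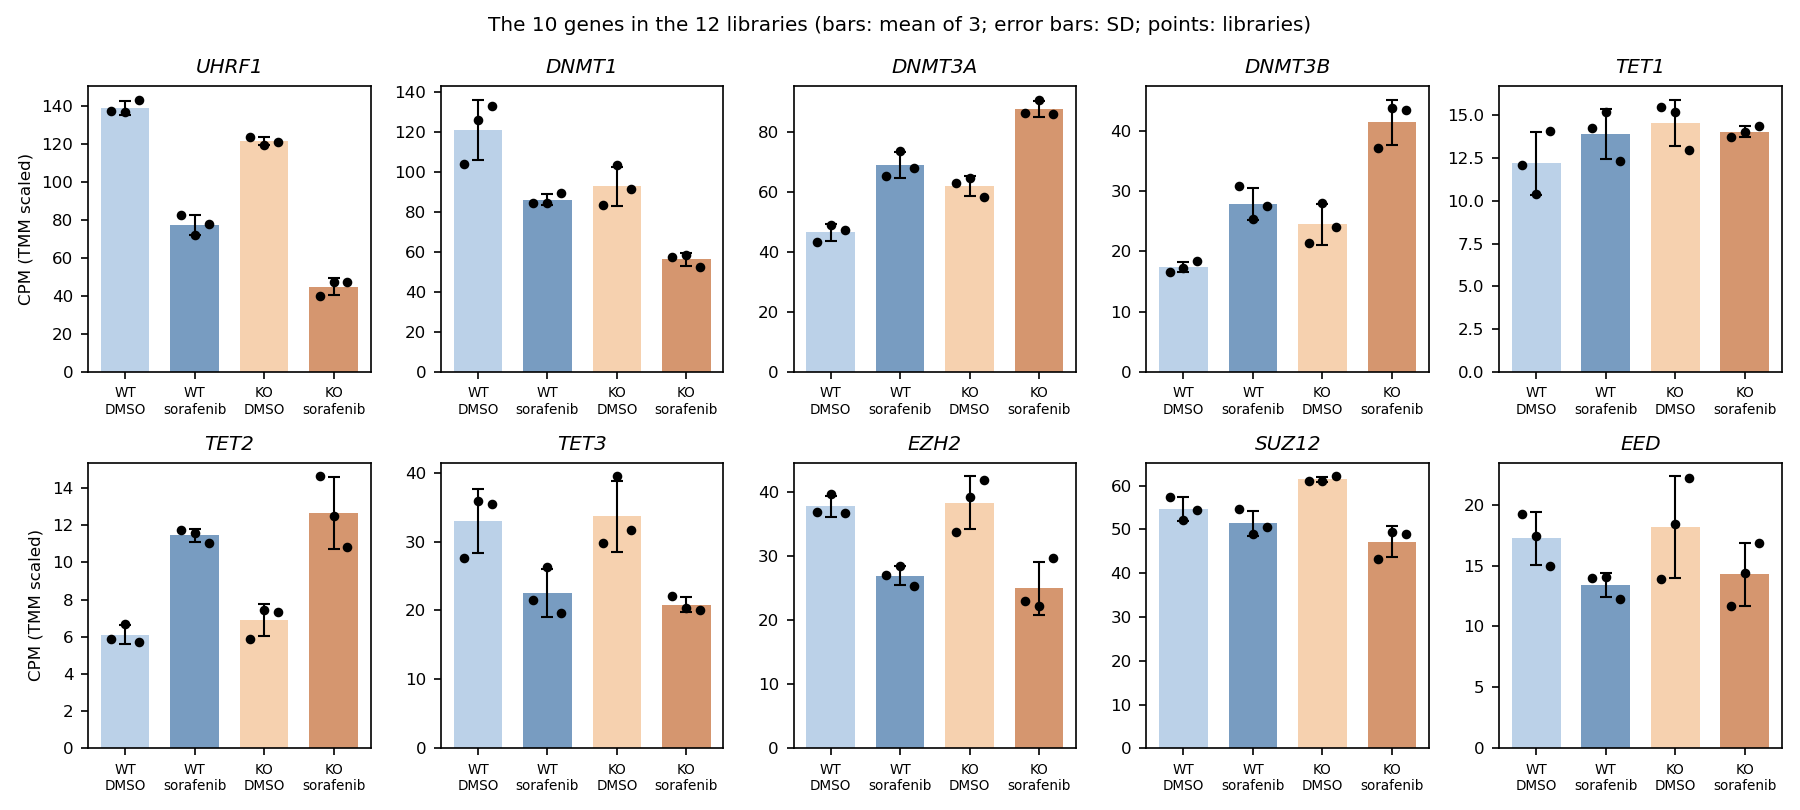
CPM of the 10 genes in the 4 groups, with 1 panel a gene and its own vertical axis from 0; bars are means of 3 libraries, error bars the SD and points the libraries. UHRF1 goes from 136.8 to 143.6 CPM in WT DMSO to 39.8 to 47.5 CPM in KO sorafenib, while DNMT3A and DNMT3B are lowest in WT DMSO and highest in KO sorafenib.

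UHRF1, the factor that guides DNMT1 to newly replicated DNA, fell with the drug in both genotypes. Its levels were 137.5, 136.8 and 143.6 CPM in WT DMSO and 82.7, 72.2 and 77.9 CPM in WT sorafenib. They were 124.0, 119.9 and 121.3 CPM in KO DMSO and 39.8, 47.5 and 47.4 CPM in KO sorafenib. In CPM all 3 libraries of each group lay apart from those of every other group, in the order WT DMSO, KO DMSO, WT sorafenib, KO sorafenib. In TPM, which is corrected for length, WT DMSO (16.7 to 18.5) and KO DMSO (16.1 to 19.9) overlapped. Sorafenib took UHRF1 to 0.557 of its DMSO level in WT (log2 -0.84 ± 0.08, adjusted p = 7.6e-06) and to 0.369 in the knockout (-1.44 ± 0.09, adjusted p = 8.47e-08).

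The 2 responses of UHRF1 differed in the interaction test, which is the response in the knockout minus that in WT. The difference was -0.60 ± 0.12 on the log2 scale (adjusted p = 0.0411), and UHRF1 was the 1 gene of the 10 called there, against 0.835% of all genes tested (0.374% higher and 0.460% lower). The size of the difference stayed between -0.67 and -0.51 under 19 alternative settings, but its adjusted p ranged from 8.44e-05 to 0.337 and was above 0.05 in 15 of them. Among the 12 fits that each left out 1 library, the call remained only without KO sorafenib replicate 3 (adjusted p = 0.0396), and elsewhere adjusted p reached 0.114. With the replicate number as a block it was 0.0711.

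Between genotypes, UHRF1 differed under the drug. KO sorafenib was at 0.578 of WT sorafenib (log2 -0.79 ± 0.08, adjusted p = 2.34e-05). In DMSO the knockout stood at 0.874 of WT (-0.19 ± 0.08, adjusted p = 0.0969), which did not pass the test although the libraries did not overlap. Over 20 alternatives its adjusted p ran from 0.0389, with DESeq2, to 0.918, with limma on log2(TPM + 0.5), where the UHRF1 difference was 0.03. It passed with DESeq2 and without KO sorafenib replicate 1 (adjusted p = 0.0437), and with the length offset it was -0.04 (adjusted p = 0.846).

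DNMT1, the maintenance methyltransferase, also fell with the drug, by less than UHRF1 in each genotype. Its levels were 103.9, 126.0 and 133.0 CPM in WT DMSO and 84.7, 84.4 and 89.3 CPM in WT sorafenib. They were 83.4, 103.3 and 91.5 CPM in KO DMSO and 57.6, 58.4 and 52.6 CPM in KO sorafenib. The 3 KO sorafenib libraries were below all others, and WT DMSO was above the KO DMSO libraries by a narrow margin. Sorafenib lowered DNMT1 by 0.49 ± 0.10 in WT (adjusted p = 0.00245) and by 0.72 ± 0.10 in the knockout (adjusted p = 0.000101) on the log2 scale, and the 2 responses differed by -0.23 ± 0.15 (adjusted p = 0.481). With protein-coding transcripts alone DNMT1 was not called in WT (-0.37, adjusted p = 0.0648). In the knockout it was not called with the length offset (-0.57, adjusted p = 0.0737) or limma on log2(TPM + 0.5) (-0.66, adjusted p = 0.0565).

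The knockout held less DNMT1 RNA than WT in DMSO (log2 -0.38 ± 0.10, adjusted p = 0.0142) and in sorafenib (-0.62 ± 0.10, adjusted p = 0.000837). In DMSO that call was lost without WT DMSO replicate 2 (adjusted p = 0.0567), WT DMSO replicate 3 (0.0669) or KO DMSO replicate 1 (0.0573). With protein-coding transcripts alone it was -0.29 (adjusted p = 0.158), and with limma -0.78 (adjusted p = 0.0504). In sorafenib the DNMT1 call was lost with the length offset (-0.68, adjusted p = 0.0613) and limma (-0.68, adjusted p = 0.088).

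UHRF1 and DNMT1 work with further proteins in maintenance methylation. Of 9 tested genes of 10 listed, 1 was higher and 3 lower in WT, where 17.5% of all genes were higher and 18.0% lower, and 0 higher and 4 lower in the knockout, where the shares were 23.0% and 23.7%. The median log2 changes of the 9 genes were -0.18 and -0.30. HELLS, a chromatin remodeller needed for methylation of repeats, went from 56.9 to 36.4 CPM in WT (log2 -0.65 ± 0.09, adjusted p = 0.000142) and from 53.4 to 31.9 CPM in the knockout (-0.74 ± 0.09, adjusted p = 3.1e-05). Its activating partner CDCA7 fell by 0.73 ± 0.12 and 1.07 ± 0.13 (adjusted p = 0.000592 and 2e-05). The 1 that rose in WT was the DNA ligase LIG1 (0.25 ± 0.08, adjusted p = 0.0335), and that call was lost in 9 of 20 alternatives (adjusted p up to 0.596). UHRF2, the relative of UHRF1, did not pass in either genotype with the drug (0.01 ± 0.10 in WT and 0.18 ± 0.11 in the knockout).

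The de novo methyltransferase genes went up where the maintenance genes went down. DNMT3A was at 43.4, 49.0 and 47.4 CPM in WT DMSO and 65.3, 73.7 and 68.0 CPM in WT sorafenib. It was at 62.9, 64.7 and 58.5 CPM in KO DMSO and 86.6, 90.9 and 86.0 CPM in KO sorafenib. WT DMSO was lowest and KO sorafenib highest with no overlap. The drug raised DNMT3A by 0.57 ± 0.08 in WT (adjusted p = 0.000113) and by 0.50 ± 0.08 in the knockout (adjusted p = 0.000177), where limma on log2(TPM + 0.5) gave 0.48 (adjusted p = 0.0563).

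DNMT3B was at 16.5, 17.3 and 18.3 CPM in WT DMSO and 30.8, 25.4 and 27.5 CPM in WT sorafenib. It was at 21.3, 28.0 and 24.1 CPM in KO DMSO and 37.2, 43.7 and 43.5 CPM in KO sorafenib. KO sorafenib was above every other library, and the WT sorafenib and KO DMSO libraries overlapped. The rise with the drug was 0.68 ± 0.11 in WT (adjusted p = 0.000487) and 0.76 ± 0.11 in the knockout (adjusted p = 0.000129). The responses of the 2 genotypes differed by -0.06 for DNMT3A (adjusted p = 0.838) and 0.08 for DNMT3B (adjusted p = 0.876).

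In the knockout against WT, 3 of the 10 genes were called in DMSO, against 27.8% of all genes tested (14.3% higher and 13.5% lower), and 4 in sorafenib, against 27.0% (13.2% higher and 13.8% lower). DNMT3A and DNMT3B were higher and DNMT1 was lower in both, and UHRF1 was lower in sorafenib. The share of the 10 genes called in DMSO is near that of all genes. DNMT3B was raised by 0.49 ± 0.11 in DMSO (adjusted p = 0.0064) and by 0.57 ± 0.11 in sorafenib (adjusted p = 0.00229). DNMT3A was raised by 0.41 ± 0.08 in DMSO (adjusted p = 0.00176) and by 0.35 ± 0.08 in sorafenib (adjusted p = 0.00482), on counts.

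The genotype difference of DNMT3A depended on the effective length, which for a gene is a mean over its transcripts weighted by TPM. With the effective length of the gene as an offset, it was 0.03 in DMSO (adjusted p = 0.932) and -0.05 in sorafenib (adjusted p = 0.884). With limma on log2(TPM + 0.5) it was 0.10 and -0.01 (adjusted p = 0.741 and 0.972). The effective length of DNMT3A, averaged over its transcripts, was 2724 to 3021 bases in WT DMSO and 3762 to 4312 bases in KO DMSO, with no overlap. That of its main transcript DNMT3A-203 overlapped, at 4451 to 4689 bases in WT DMSO and 4282 to 4817 bases in KO DMSO. Protein-coding transcripts held 9.93 of 13.9 TPM in WT DMSO and 12.9 of 14.9 TPM in KO DMSO. With protein-coding transcripts alone the difference was 0.43 in DMSO (adjusted p = 0.00187) and 0.40 in sorafenib (adjusted p = 0.00266).

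**Figure D2:**
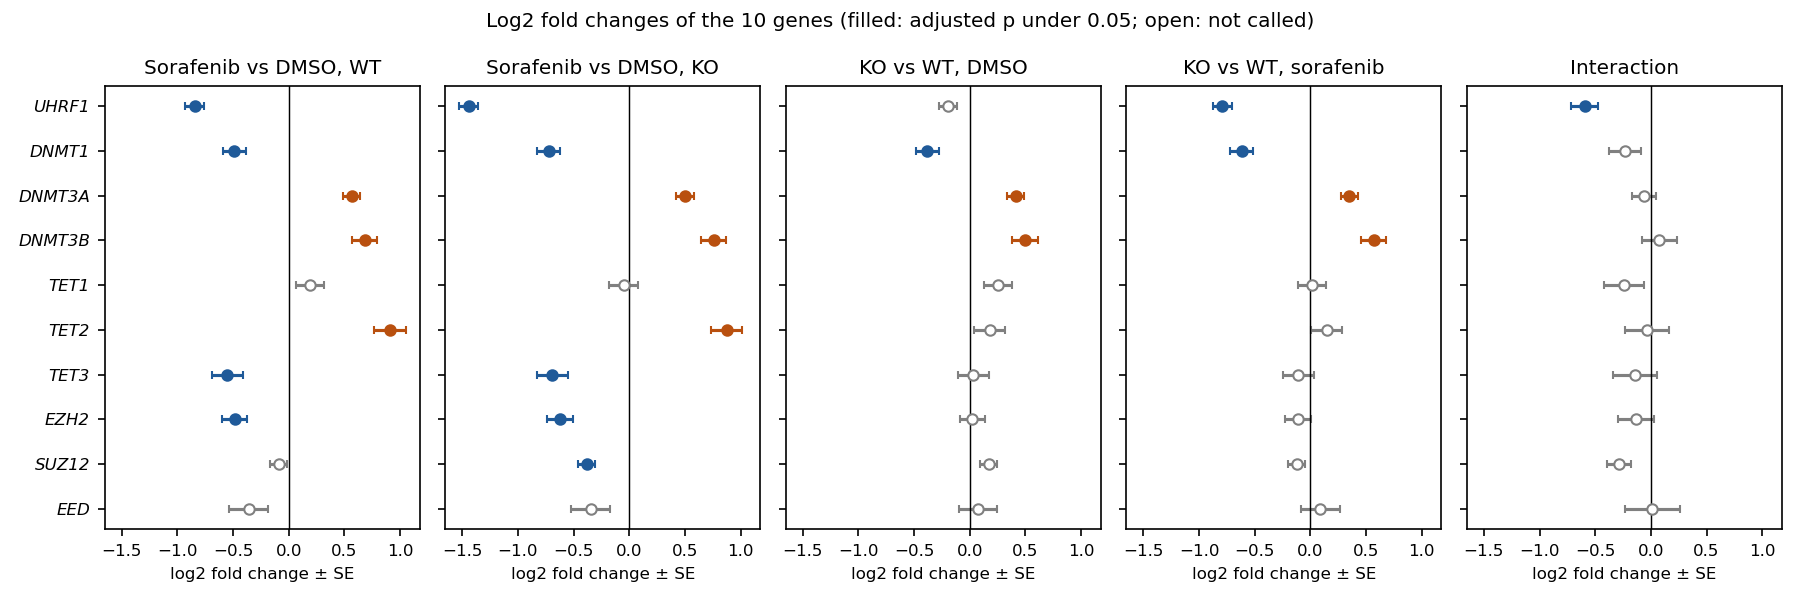
Log2 fold changes with their SE for the 10 genes in the 4 comparisons and the interaction. Filled points passed an adjusted p of 0.05 in edgeR and open points did not. UHRF1 has the lowest value in both panels of sorafenib against DMSO, at -0.84 and -1.44, and TET2 the highest, at 0.91 and 0.88.

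Most DNMT3A RNA came from the short form. DNMT3A-203, known as DNMT3A2, starts 89614 bases downstream of the MANE start next to the internal start shown above and encodes 723 codons instead of 912, without the N-terminal part. It held 74.6% to 89.1% of the DNMT3A counts in the 12 libraries, and the MANE form DNMT3A-202 at most 1.09%. The group means of its share were 81.9 ± 1.09% in WT DMSO, 79.4 ± 4.24% in WT sorafenib, 87.7 ± 2.36% in KO DMSO and 85.1 ± 2.63% in KO sorafenib (SD, n = 3). The long form DNMT3A-201 held 7.60 ± 0.302%, 9.83 ± 0.621%, 6.52 ± 1.49% and 9.31 ± 1.19% in the same order.

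DNMT3B RNA was also assigned to forms other than the MANE form, whose share was at most 2.81%. DNMT3B-203 lacks MANE exons 10, 21 and 22 and matches the form known as DNMT3B3, which lacks part of the catalytic domain. It held 51.7 ± 21.6%, 56.8 ± 18.7%, 63.7 ± 10.3% and 64.6 ± 3.61% of the counts in WT DMSO, WT sorafenib, KO DMSO and KO sorafenib. DNMT3B-201 lacks the coding exon 10 and starts 17467 bases downstream of the MANE start, with 845 codons against 853. It held most of the rest, at 47.9 ± 21.1%, 40.7 ± 21.4%, 35.1 ± 11.2% and 35.0 ± 3.92%. The groups overlapped in both shares. The files held 6 of 21 annotated DNMT3B transcripts, so other forms were not measured.

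For DNMT1, the retained-intron transcript DNMT1-206 held 5.73% to 21.5% of the counts in KO sorafenib and 0% to 4.17% in the other 9 libraries. The MANE form DNMT1-202 spanned 22.6% to 75.1% over the 12 libraries. The splits of UHRF1, EZH2 and TET2 between forms were unstable within groups. The UHRF1 form UHRF1-208, for example, spanned 0% to 100%. These shares are estimates that divide reads common to several transcripts.

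**Figure D3:**
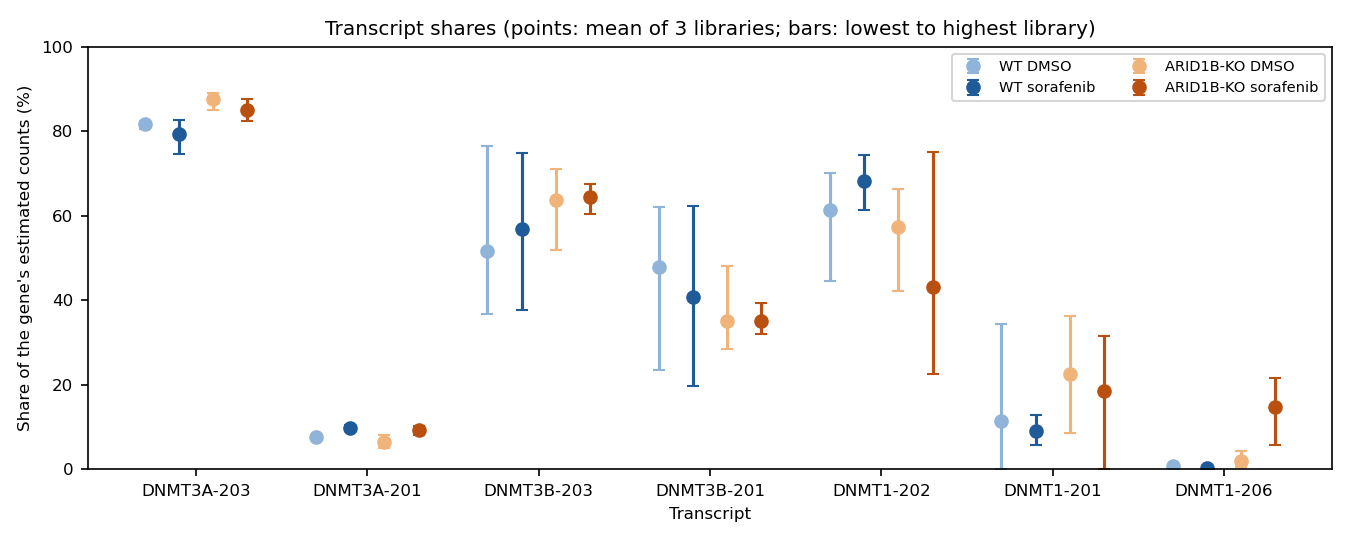
Share of the gene's estimated counts, in percent, assigned to 7 transcripts of DNMT3A, DNMT3B and DNMT1 in the 4 groups; points are means of 3 libraries and bars run from the lowest to the highest library. DNMT3A-203 lies between 74.6% and 89.1% in every library, whereas the 2 DNMT3B forms spread widely within groups.

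The 3 TET genes each took a different course. TET2 was at 5.89, 6.69 and 5.73 CPM in WT DMSO, 11.7, 11.6 and 11.1 CPM in WT sorafenib, 5.90, 7.46 and 7.36 CPM in KO DMSO and 14.6, 12.5 and 10.8 CPM in KO sorafenib. Every drug library was above every DMSO library. The rise was 0.91 ± 0.14 in WT (adjusted p = 0.000265) and 0.88 ± 0.14 in the knockout (adjusted p = 0.000233). With protein-coding transcripts alone, where a form annotated for nonsense-mediated decay is left out, the rises of 1.08 and 0.80 did not pass (adjusted p = 0.196 and 0.304).

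TET3 was at 27.6, 35.8 and 35.5 CPM in WT DMSO, 21.5, 26.4 and 19.6 CPM in WT sorafenib, 29.7, 39.5 and 31.7 CPM in KO DMSO and 22.1, 20.3 and 20.1 CPM in KO sorafenib. Every drug library was below every DMSO library. It fell by 0.55 ± 0.14 in WT (adjusted p = 0.00781) and by 0.69 ± 0.14 in the knockout (adjusted p = 0.00141). With limma the TET3 value in WT was -0.47 and was not called (adjusted p = 0.0703). TET1 stayed between 10.4 and 15.5 CPM in all 12 libraries, with overlapping groups and log2 changes of 0.19 ± 0.13 and -0.05 ± 0.13 with the drug (adjusted p = 0.272 and 0.774). No TET gene passed the test between genotypes, where their log2 differences ran from -0.11 to 0.25.

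Genes that act with the TET enzymes in active demethylation were counted next. Of 10 tested, 4 were higher and 1 lower with the drug in WT, where 17.5% of all genes were higher and 18.0% lower. In the knockout 6 were higher and 2 lower, against 23.0% and 23.7%. XRCC1, a scaffold of base excision repair, rose by 0.54 ± 0.08 in WT and 0.46 ± 0.08 in the knockout (adjusted p = 0.000141 and 0.000318). TDG, the glycosylase that removes oxidised methylcytosine, fell in WT by 0.54 ± 0.14 (adjusted p = 0.00888) and was at 0.01 ± 0.14 in the knockout, but the difference between these TDG responses did not pass (0.55 ± 0.20, adjusted p = 0.198). The glycosylase NEIL1 rose in the knockout by 1.25 ± 0.20 (adjusted p = 0.000249) and was at -0.05 ± 0.20 in WT. The difference between these NEIL1 responses was 1.30 ± 0.28 (adjusted p = 0.0531). With protein-coding transcripts alone the NEIL1 rise was 0.41 (adjusted p = 0.672). XRCC1 lost its call with limma in WT (0.41, adjusted p = 0.103) and in the knockout (0.15, adjusted p = 0.536).

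Of the Polycomb core genes, EZH2, the catalytic subunit, fell in both genotypes. It was at 36.9, 39.7 and 36.7 CPM in WT DMSO, 27.1, 28.5 and 25.4 CPM in WT sorafenib, 33.8, 39.3 and 41.9 CPM in KO DMSO and 23.0, 22.2 and 29.7 CPM in KO sorafenib. Every drug library was below every DMSO library, and genotypes overlapped. The fall was 0.49 ± 0.11 in WT (adjusted p = 0.00529) and 0.62 ± 0.12 in the knockout (adjusted p = 0.000767).

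SUZ12, which holds the complex together, was at 57.4, 52.1 and 54.5 CPM in WT DMSO and 54.6, 49.0 and 50.5 CPM in WT sorafenib. It was at 61.1, 61.0 and 62.2 CPM in KO DMSO and 43.3, 49.4 and 49.0 CPM in KO sorafenib. The WT groups overlapped and the knockout groups did not. The change was -0.09 ± 0.08 in WT (adjusted p = 0.393) and -0.38 ± 0.08 in the knockout (adjusted p = 0.00135), and the test of the difference between them gave -0.29 ± 0.11 (adjusted p = 0.214). In the knockout, SUZ12 was not called with the length offset (-0.23, adjusted p = 0.164) or with limma (-0.35, adjusted p = 0.0848).

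EED, the subunit that reads the methylated histone, lay at 15.0 to 19.3 CPM in WT DMSO and 12.3 to 14.0 CPM in WT sorafenib. It lay at 13.9 to 22.2 CPM in KO DMSO and 11.7 to 16.8 CPM in KO sorafenib. Its changes of -0.36 ± 0.17 in WT and -0.35 ± 0.17 in the knockout were not called (adjusted p = 0.123 and 0.118). In a fit of the WT libraries alone it was called in WT (adjusted p = 0.0429), and without KO DMSO replicate 1 it was called in the knockout (adjusted p = 0.0286). SUZ12, EED and EZH2 did not pass between genotypes under either treatment.

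Groups whose 3 libraries did not overlap were found for 8 of the 10 genes with the drug in WT, against 50.8% of all genes, and for 8 in the knockout, against 52.9%. Between genotypes there were 5 in DMSO, against 42.2%, and 4 in sorafenib, against 42.7%.

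The complex also has accessory and alternative subunits. Of 10 tested genes of 12 listed, 0 were higher and 1 lower with the drug in WT, where 35.4% of all genes were called in either direction. In the knockout 3 were higher and 2 lower, near the 46.7% of all genes called. PHF19, a Polycomb-like subunit, fell by 0.47 ± 0.08 and 0.34 ± 0.08 (adjusted p = 0.000677 and 0.00427). EZH1, the catalytic alternative to EZH2, rose in the knockout by 0.59 ± 0.16 (adjusted p = 0.0101) and was at 0.14 ± 0.16 in WT, with a difference between the 2 responses of 0.45 ± 0.23 (adjusted p = 0.378). The accessory subunit JARID2 rose in the knockout by 0.41 ± 0.12 (adjusted p = 0.015) and was at 0.30 ± 0.12 in WT.

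Polycomb repressive complex 1 marks histone H2A and works beside complex 2. Of its 24 tested subunit genes, 1 was higher and 5 lower in WT, where the number lower is near the 18.0% of all genes, and 0 higher and 10 lower in the knockout, against 23.0% and 23.7%. KDM2B, which brings the complex to unmethylated CpG islands, fell by 0.40 ± 0.08 in WT and 0.81 ± 0.08 in the knockout (adjusted p = 0.00138 and 3.6e-06). PHC2 fell by 0.34 ± 0.08 and 0.63 ± 0.08, and the chromodomain protein CBX2 by 0.46 ± 0.10 and 0.45 ± 0.10. Of 7 tested genes for enzymes that undo the marks of both complexes and their cofactors, 2 were higher and 0 lower with the drug in WT. In the knockout 3 were higher and 2 lower. The shares of all genes called in either direction were 35.4% in WT and 46.7% in the knockout. Among the 7 genes the demethylase KDM6A rose by 0.72 ± 0.15 and 0.67 ± 0.15 (adjusted p = 0.00252 and 0.00315). With the length offset KDM6A was not called in WT (0.24, adjusted p = 0.509), and with protein-coding transcripts alone PHC2 was not (-0.11, adjusted p = 0.361). Between genotypes, 4 complex 1 genes were higher and 1 lower in the knockout in DMSO, and 1 higher and 3 lower in sorafenib. Of all genes, 27.8% and 27.0% were called there in either direction.

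The proteins that read methylated CpG rose or did not pass. In each of the 4 comparisons 3 of the 10 tested were higher and 0 lower. Over all genes, 35.4% and 46.7% were called in either direction with the drug in WT and the knockout. Between genotypes 27.8% were called in DMSO and 27.0% in sorafenib. The number of readers called is near or below these shares. With the drug the higher readers included the zinc finger proteins ZBTB38 (0.54 ± 0.08 in WT and 0.66 ± 0.08 in the knockout) and ZBTB4 (0.50 ± 0.13 and 0.67 ± 0.13). ZBTB33 was higher in the knockout than in WT, by 0.70 ± 0.08 in DMSO and 0.53 ± 0.08 in sorafenib (adjusted p = 3.45e-05 and 0.00035), and was not called with the drug.

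Enzymes that supply the methyl donor S-adenosylmethionine or the cofactors of the TET enzymes moved both ways. Of 18 tested, 7 were higher and 4 lower with the drug in WT, where 17.5% of all genes were higher and 18.0% lower. In the knockout 8 were higher and 3 lower, against 23.0% and 23.7%. GNMT, which consumes the methyl donor, rose from 1.61 to 10.5 CPM in WT and from 2.52 to 15.3 CPM in the knockout (log2 2.69 ± 0.14 and 2.60 ± 0.14). The mitochondrial folate enzyme MTHFD2 fell by 1.51 ± 0.10 and 1.78 ± 0.10, while IDH2, a source of alpha-ketoglutarate, rose by 0.75 ± 0.08 and 0.73 ± 0.08. Each of these changes had an adjusted p of at most 1.23e-05.

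In the knockout against WT in DMSO, 5 of the 18 genes were higher and 2 lower, and under the drug 5 higher and 3 lower, where 27.8% and 27.0% of all genes were called in either direction. BHMT, which remethylates homocysteine in liver, was at 2.92 CPM in WT DMSO and 33.0 CPM in KO DMSO (log2 3.48 ± 0.17, adjusted p = 2.42e-08), and at 9.30 CPM and 79.1 CPM under the drug (3.09 ± 0.16, adjusted p = 3.68e-08). MAT1A, the liver form of the enzyme that makes the methyl donor, was higher in the knockout by 1.16 ± 0.08 in DMSO. MAT2A, the form found in most dividing cells, was lower by 0.85 ± 0.19 (adjusted p = 6.86e-07 for MAT1A and 0.00549 for MAT2A).

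**Figure D4:**
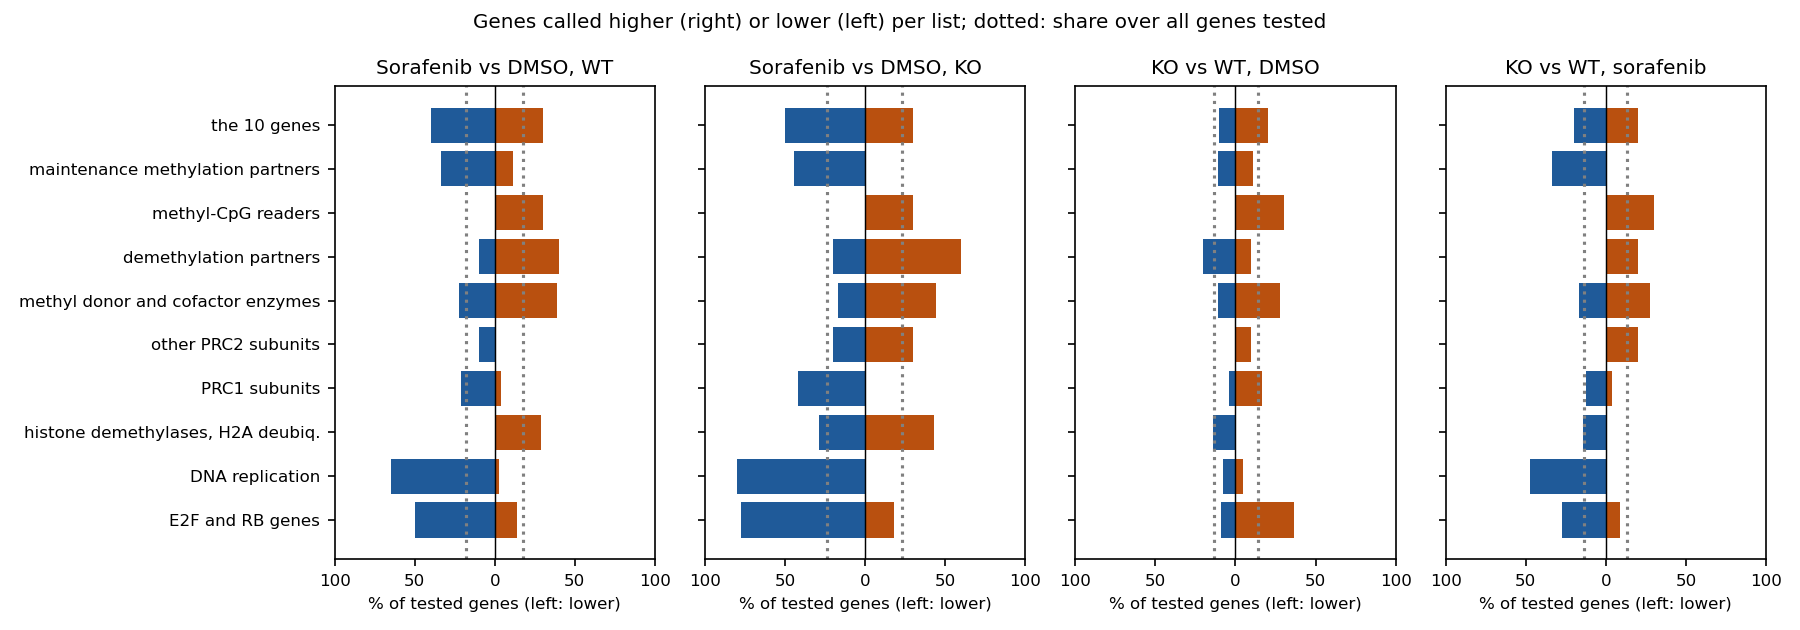
Share of the tested genes of each list called higher (right) or lower (left) in the 4 comparisons, in percent, with dotted lines at the share over all genes tested. The DNA replication list is the one with most genes lower under the drug, 26 of 40 in WT and 32 of 40 in the knockout.

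Replication genes fell in the same comparisons as UHRF1, and most passed the test with the drug. Of 40 tested, 1 was higher and 26 lower with the drug in WT, 0 higher and 32 lower in the knockout, and 0 higher and 19 lower in the knockout against WT under the drug, with 2 higher and 3 lower in DMSO. The median log2 changes were -0.39, -0.69, -0.34 and 0.02. In the same order, 18.0%, 23.7%, 13.8% and 13.5% of all genes tested were lower. The summed level of the 40 genes was 2939 to 3109 CPM in WT DMSO, 2246 to 2478 CPM in WT sorafenib, 3006 to 3170 CPM in KO DMSO and 1828 to 2084 CPM in KO sorafenib. The part of this shift in the results for the 10 genes was not tested.

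Among the E2F and RB genes, 3 of 22 were higher and 11 lower with the drug in WT, where 17.5% of all genes were higher and 18.0% lower. In the knockout 4 were higher and 17 lower, against 23.0% and 23.7%. E2F1 fell by 0.94 ± 0.08 and 1.19 ± 0.09 (adjusted p = 4.02e-06 and 3.77e-07), and E2F3 by 1.08 ± 0.10 and 1.11 ± 0.10. CDKN1A, the cell cycle inhibitor p21, rose by 0.79 ± 0.10 and 0.63 ± 0.10. In the knockout against WT, 8 of the 22 were higher and 2 lower in DMSO, and 2 higher and 6 lower in sorafenib. Of all genes, 27.8% and 27.0% were called in these comparisons in either direction. E2F2 fell by 0.73 ± 0.10 in WT and 1.53 ± 0.11 in the knockout.

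Liver and other markers moved as well. The summed level of the 12 liver genes was 81211 to 90889 CPM in WT DMSO, 98570 to 107361 CPM in WT sorafenib, 92376 to 111006 CPM in KO DMSO and 118383 to 184315 CPM in KO sorafenib. ALB alone had group means of 32594 CPM in WT DMSO and 88912 CPM in KO sorafenib. Of the 12 genes, 5 were higher and 4 lower with the drug in WT, and 5 higher and 3 lower in the knockout. KRT18 fell by 1.40 ± 0.08 and 1.74 ± 0.08, and APOA1 rose by 1.24 ± 0.15 and 1.31 ± 0.15. The 12 markers of other cell types summed to 54.3 to 62.8, 93.2 to 98.9, 80.4 to 98.9 and 124 to 140 CPM in WT DMSO, WT sorafenib, KO DMSO and KO sorafenib. Of the 5 tested, 2 were higher and 0 lower with the drug in each genotype. In the knockout against WT, 4 were higher in DMSO and 3 in sorafenib, and 0 lower. With the drug 35.4% and 46.7% of all genes were called, and between genotypes 27.8% and 27.0%. The part of these shifts in the results for the 10 genes was not tested.

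Genes that DNA methylation or Polycomb commonly keep silent were counted as well. Of 28 germline genes, 17 had 0 counts in every library and 27 stayed under 1 CPM, and 2 passed the filter. Of these, the PIWI gene PIWIL2 rose with the drug in the knockout from 2.13 to 4.23 CPM (log2 0.99 ± 0.24, adjusted p = 0.00471). With the length offset PIWIL2 was at 1.01 (adjusted p = 0.144) and with limma at 0.60 (adjusted p = 0.114). The other, PAGE1, reached at most 0.650 CPM in a library. Its means were 0.392 CPM in WT DMSO, 0.514 CPM in WT sorafenib, 0 in KO DMSO and 0.0658 CPM in KO sorafenib. PAGE1 thus passed the filter through its WT libraries, so a test of the knockout against WT adds no independent support. The fitted differences were -6.24 ± 1.53 in DMSO (adjusted p = 0.0115) and -2.95 ± 0.96 in sorafenib (adjusted p = 0.0431). The value in DMSO is a fit against a mean of 0 and gives no fold size. PIWIL2 was at 0.50 ± 0.25 (adjusted p = 0.15) and 1.30 ± 0.24 (adjusted p = 0.00171) in these 2 comparisons. Of 72 developmental genes often under Polycomb control, 28 had 0 counts in every library, 57 stayed under 1 CPM and 15 passed the filter.

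Those 15 showed 2 higher and 1 lower with the drug in WT, and 4 higher and 3 lower in the knockout. In the knockout against WT they showed 6 higher and 1 lower in DMSO, and 5 higher and 2 lower in sorafenib. In the order of these 4 comparisons, 35.4%, 46.7%, 27.8% and 27.0% of all genes were called in either direction. TBX2 rose with the drug by 1.81 ± 0.08 in WT and 1.74 ± 0.08 in the knockout (adjusted p = 1.11e-08 and 1.33e-08), from 23.5 to 82.1 CPM and from 36.5 to 122 CPM. The homeobox gene MSX1 was higher in the knockout by 0.61 ± 0.09 in DMSO and 0.98 ± 0.09 in sorafenib. CDKN2A, a tumour suppressor silenced by both systems in many tumours, was higher by 1.61 ± 0.25 and 1.80 ± 0.25 (adjusted p = 0.000446 and 0.000244), at 3.74 CPM in WT DMSO and 11.5 CPM in KO DMSO. CDKN2B was lower in the knockout in DMSO (-2.27 ± 0.59, adjusted p = 0.0127) and was not called in sorafenib (-1.10 ± 0.60, adjusted p = 0.201). GATA2 fell with the drug by 0.73 ± 0.12 in WT and 0.43 ± 0.12 in the knockout (adjusted p = 0.000427 and 0.00938).

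Levels were compared between genes only per length, as TPM (a length-corrected share of the library) summed over protein-coding transcripts. In WT DMSO the order from the top was DNMT1 (19.2 ± 9.13 TPM, SD, n = 3), UHRF1 (17.5 ± 0.885), EED (16.1 ± 1.95), SUZ12 (13.9 ± 2.23), EZH2 (13.3 ± 1.40), DNMT3A (9.93 ± 2.16), DNMT3B (2.57 ± 0.190), TET3 (1.99 ± 0.286), TET1 (1.56 ± 0.269) and TET2 (0.614 ± 0.292). Neighbours from DNMT1 to DNMT3A overlapped in their ranges, as did TET3 and TET1. DNMT3A and DNMT3B did not overlap, nor did DNMT3B and TET3 or TET1 and TET2.

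In KO sorafenib DNMT3A was highest of the methylation genes on this scale (18.0 ± 0.894 TPM), above DNMT3B (6.57 ± 1.18), UHRF1 (6.21 ± 1.25) and DNMT1 (3.90 ± 0.653). DNMT3B and UHRF1 overlapped, and DNMT1 lay below both. The place of DNMT1 depends on the transcripts summed. Over all its transcripts, DNMT1 was at 31.3 ± 5.68 TPM (27.0 to 37.8) in KO sorafenib, above DNMT3A at 21.0 ± 1.09 TPM (19.8 to 21.9), and the order of the 2 genes was then that of WT DMSO, where they stood at 87.6 ± 24.4 and 13.9 ± 1.83 TPM.

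Levels of the 10 genes were also compared over the 12 libraries. Pearson's r of log2 CPM was 0.92 between UHRF1 and DNMT1 and 0.95 between DNMT3A and DNMT3B, and -0.92 between UHRF1 and DNMT3A. TET1 had an r of -0.39 to 0.49 with the other 9 genes. The 12 libraries fall into 4 groups, so these values describe the group differences above. Among 10019 genes whose mean reached 5 CPM, those most like UHRF1 were PRMT5 (r = 0.9955), MCM4 (0.9951), MTHFD1L (0.9909), GART (0.9896) and PYCR1 (0.9887). Those most like DNMT3B were ACAD11 (0.9794), SMAD7 (0.9785), EML6 (0.9761), UCP2 (0.9733) and a gene without a symbol. Those most like EZH2 were ZNF202 (0.9742), HNRNPA3 (0.9649), ODF2 (0.9645), HARS1 (0.9627) and MCM10 (0.9614).

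Annotated pseudogene copies took few counts. SUZ12P1 was at 0.183 to 1.10 CPM, TET1P1 at 0.0494 CPM or less, and the copies of DNMT3A, EZH2 and EED at 0 counts. Reads shared between SUZ12 and its copy were divided by the quantification, so a small part of the SUZ12 level is uncertain. On GRCh38 (GENCODE release 44) UHRF1 spans chr19:4903080-4962154, DNMT1 chr19:10133342-10231286, DNMT3A chr2:25227855-25342590, DNMT3B chr20:32762385-32809359, EZH2 chr7:148807257-148884321 and TET2 chr4:105145875-105279816.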

How the data were processed

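Polyadenylated RNA of HepG2 cells was measured in 12 libraries, grouped by title into 4 groups of 3. The 10 genes and all gene lists were chosen with earlier results of these data known.

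For each library the authors deposited a transcript table from Salmon, which per the file headers holds the estimated count, length, effective length and TPM of each transcript. The estimated counts are fractional and not normalized, and the TPM values deposited by the authors are scaled to a fixed total in a library. The submitters' processing notes name Salmon, without a version, DESeq2 1.46.0 and GRCh38, and the design text names an Ensembl annotation. Strand and bias settings are not given in the sources used here.

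Of 177456 transcripts, 165533 (93.3%) matched GENCODE release 44 by unversioned identifier. The rest held 2.87% to 3.20% of a library's counts and were left out. Counts were summed to 35810 genes and rounded. Genes were tested with edgeR 4.0.16 (quasi-likelihood, R 4.3.3) after TMM scaling and filterByExpr, fitted to all 12 libraries with 4 group means and adjusted by Benjamini-Hochberg over 12821 genes. The 5 contrasts were the drug in each genotype, the genotype under each treatment, and the interaction. SE was taken as |log2 change| / √F. P-values measure the spread between these libraries. No 2 libraries of a group agreed within sampling noise. PCR duplicates cannot be told from independent molecules in these tables. The procedure was tested on simulated data.

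The text names all 10 genes, ARID1B, up to 4 genes of each list with the smallest adjusted p in a contrast, list genes called in the interaction, and the 5 genes most correlated with UHRF1, DNMT3B and EZH2. Transcript shares are described from 5% of a gene in any group mean. Alternatives were other scaling (RLE), DESeq2 1.42.0, no filter, 2-group fits, a length offset, limma 3.58.1 on log2(TPM + 0.5), protein-coding transcripts alone, the replicate block and leaving out each library.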

Additional observations from a re-analysis of the deposited data

Results flagged for a closer look

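The responses of 3 named genes to sorafenib differed between the genotypes by the interaction test of edgeR (response in the knockout minus response in WT, Benjamini-Hochberg adjustment over all genes). UHRF1 differed by -0.60 ± 0.12 on the log2 scale (adjusted p = 0.0411), and in each genotype all 3 drug libraries were below all 3 DMSO libraries. The replication helicase subunit MCM7 differed by -0.52 ± 0.11 (adjusted p = 0.0465), from a fall of 0.48 in WT to 1.01 in the knockout. E2F2, an activating E2F factor, differed by -0.80 ± 0.15 (adjusted p = 0.0315). Of 19 alternatives, the call was kept in 4 for UHRF1, 3 for MCM7 and 3 for E2F2. The log2 difference ran from -0.58 to -0.47 for MCM7 and from -0.86 to -0.64 for E2F2, with adjusted p up to 0.396 and 0.417.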

How the results depend on the processing

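Of 23 calls among the 10 genes, 11 kept their direction and their side of the threshold under all 20 alternatives, and of 27 results not called, 24 did. With limma on log2(TPM + 0.5) the number of the 10 genes called was 5 for the drug in the knockout, 1 for the knockout in DMSO, 2 for the knockout in sorafenib and 0 for the interaction. With the length offset it was 2 for the knockout in sorafenib and 0 for the interaction, which was also 0 with protein-coding transcripts alone. Leaving out each library gave 7 to 7 genes for the drug in WT, 8 to 9 in the knockout, 2 to 4 for the knockout in DMSO, 4 to 4 in sorafenib and 0 to 1 for the interaction. The genotype difference of DNMT3A in sorafenib reversed to -0.049 with the length offset and -0.013 with limma. These settings add effective length, so they also respond to how counts are divided between the transcripts of a gene. Why the mean effective length of DNMT3A differs was not tested.

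Of 131 calls of other list genes that were checked, 67 held under every alternative. PAGE1, CDKN2B and the cell type markers were not checked. With limma, calls of PHF19, EZH1 and JARID2 for the drug and of MSX1 in the knockout were among those lost. The reversals were GADD45B in the knockout in DMSO (0.19, length offset), MBD5 in the knockout in sorafenib (-0.28, length offset, and -0.16, limma), LIG1 (0.094) and MCM7 (0.046) in the knockout in sorafenib with protein-coding transcripts alone. The cause was not tested.

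Replicate numbers are shared between groups. With the replicate block 7 genes were called for the drug in WT, 8 in the knockout, 3 for the knockout in DMSO, 4 in sorafenib and 0 for the interaction, where the count over all genes went from 107 to 19. Deviations of same-numbered libraries correlated at -0.26 to 0.285 in 18 pairs, 5 of them over 0.1. Those of differently numbered libraries correlated at -0.23 to 0.286 in 36 pairs, 9 of them over 0.1. The labels do not say whether a number marks a shared culture, and these ranges cannot decide it.

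Over all genes, the interaction had 107 calls, against 584 with DESeq2, 2 with the length offset, 2 with limma, 19 with protein-coding transcripts alone and 5 to 138 without 1 library. The drug in WT had 4543 calls, against 2867 with the length offset and 2524 with limma. The knockout had 3563 calls in DMSO, against 2189 and 1983, and 3463 in sorafenib, against 2046 and 1792. With the drug in WT, the 95% interval of changes that did not pass ran from -0.73 to 0.01 for EED and from -0.08 to 0.46 for TET1 (log2, n = 3 libraries a group).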

Other observations

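Mitochondrial transcripts took 6.75% to 12.27% of the counts, and the libraries of the 4 groups overlapped in that share. Albumin took 3.26% to 3.42% of the counts in WT DMSO, 4.14% to 4.38% in WT sorafenib, 5.08% to 5.59% in KO DMSO and 6.86% to 9.63% in KO sorafenib. The Polycomb repressive complex 1 gene RING1 had 0 counts in 6 of the 12 libraries. Its means were 22.6 ± 19.7 CPM in WT DMSO, 22.3 ± 19.5 CPM in WT sorafenib, 0 in KO DMSO and 11.2 ± 9.99 CPM in KO sorafenib (SD, n = 3). Its fitted difference between KO DMSO and WT DMSO did not pass the test (adjusted p = 0.143), and it was named after its values were seen. The effective length of DNMT3A-203 in the deposited tables was 4122 to 4817 bases, above its annotated length of 3589 bases.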
